A study of Mus musculus with 14 samples.

Results

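A group of less-studied genes, 7 of the 33939 in the deposited table, were followed across the brain hemispheres of injured mice: Ccdc162, Gpr165, Upk1b, Klhdc8b, Abca9, Rapgef5 and Arhgap5. They were chosen by their low level in the ipsilateral, injured hemisphere (IL) against the contralateral hemisphere (CL), so their fall between hemispheres is described here and not tested. RNA came from CD11b+ cells, that is microglia and other myeloid cells pulled out with magnetic beads, of C57BL/6 mice 8 to 12 weeks old, 3 days after traumatic brain injury (TBI) by controlled cortical impact. Control mice (Ctrl) were Cx3cr1-CreER+/- and conditional knockouts (cKO) were Cx3cr1-CreER+/-;Nhe1flox/flox. Both genotypes carried the Cre allele and received tamoxifen, although the sample titles call the Ctrl mice wildtype. The study describes the mice of this sequencing experiment as male. The Cre is driven from Cx3cr1, a gene that microglia and many monocyte-derived cells use. The 14 libraries, from 8 mice, comprised 4 of each hemisphere for Ctrl and 3 of each for cKO. All 4 Ctrl mice (3541, 3545, 3546 and 3551) and 2 cKO mice (791 and 3592) gave both hemispheres, while cKO mouse 788 gave CL alone and cKO mouse 784 gave IL alone. The CL hemisphere is that of an injured mouse, not of a naive brain.

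Microglia at rest express a characteristic set of receptors and transporters, many of which fall when the cells respond to injury, while monocytes and neutrophils can enter the damaged tissue and carry CD11b as well. The genes followed here do different jobs. Gpr165 encodes an orphan G protein-coupled receptor. Upk1b encodes uroplakin 1b, a tetraspanin best known from the bladder lining. Klhdc8b and Ccdc162 encode a kelch-repeat protein and a coiled-coil protein. Abca9 belongs to the A subfamily of ABC transporters, many of which handle lipids. Rapgef5 is an exchange factor that loads Rap GTPases with GTP, and Arhgap5 (p190-B) switches small GTPases of another family off.

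The libraries held an estimated 12.2 M to 41.6 M counted reads (M, 1000000), and values are in counts per M reads (CPM). The Ctrl IL library of mouse 3546 was the shallowest. The microglial markers P2ry12 and Tmem119 were abundant in every library, and the 12 microglial markers together took 23683 to 50719 CPM. Itgam, which encodes CD11b, measured 650 to 1714 CPM over the 14 libraries.

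All 7 are protein-coding genes. By GENCODE M21 on GRCm38, Ccdc162 lies on the minus strand at chr10:41538846-41716634, Gpr165 on the plus strand at chrX:96713441-96719388, Upk1b on the minus strand at chr16:38773184-38800328 and Klhdc8b on the minus strand at chr9:108447636-108461581. Abca9 lies on the minus strand at chr11:110100749-110168196, Rapgef5 on the plus strand at chr12:117516479-117759737 and Arhgap5 on the plus strand at chr12:52503972-52571975. The library kit keeps no strand. Klhdc8b overlaps Ccdc71 on the other strand over 220 exonic bases, so reads from that stretch cannot be assigned to either gene.

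RefSeq windows of 300 bases, from 250 bases before to 50 bases after a transcript start on GRCm38.p6, were found for 5 of the 7 genes, in 7 windows; Ccdc162 and Upk1b had none. Windows for genes of each size of fall are printed here. The windows lie at chr9:108461532-108461831 (Klhdc8b, minus strand), chrX:96713218-96713517 (Gpr165, plus strand), chr11:110168104-110168403 (Abca9, minus strand) and chr12:117516276-117516575 (Rapgef5, plus strand), each written 5' to 3' along its gene. Capitals mark matches to any of 4 motifs of factors used by myeloid cells.
Klhdc8b: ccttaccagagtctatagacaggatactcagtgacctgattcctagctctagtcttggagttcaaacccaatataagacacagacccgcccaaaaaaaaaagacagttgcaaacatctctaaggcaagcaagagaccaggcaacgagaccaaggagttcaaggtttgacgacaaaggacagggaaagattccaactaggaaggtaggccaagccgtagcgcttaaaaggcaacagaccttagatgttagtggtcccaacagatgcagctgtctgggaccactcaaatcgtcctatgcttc
Gpr165: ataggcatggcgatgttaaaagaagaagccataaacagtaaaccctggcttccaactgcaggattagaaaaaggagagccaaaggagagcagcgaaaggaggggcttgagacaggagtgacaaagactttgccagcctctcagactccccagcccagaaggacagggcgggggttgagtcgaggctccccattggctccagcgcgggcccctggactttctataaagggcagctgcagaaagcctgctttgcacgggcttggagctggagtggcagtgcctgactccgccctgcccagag
Abca9: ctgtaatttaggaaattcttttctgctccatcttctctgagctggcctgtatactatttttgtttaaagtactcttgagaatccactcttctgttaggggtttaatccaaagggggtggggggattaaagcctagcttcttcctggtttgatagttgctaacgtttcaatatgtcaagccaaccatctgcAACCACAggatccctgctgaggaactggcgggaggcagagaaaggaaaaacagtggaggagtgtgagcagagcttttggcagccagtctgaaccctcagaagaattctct
Rapgef5: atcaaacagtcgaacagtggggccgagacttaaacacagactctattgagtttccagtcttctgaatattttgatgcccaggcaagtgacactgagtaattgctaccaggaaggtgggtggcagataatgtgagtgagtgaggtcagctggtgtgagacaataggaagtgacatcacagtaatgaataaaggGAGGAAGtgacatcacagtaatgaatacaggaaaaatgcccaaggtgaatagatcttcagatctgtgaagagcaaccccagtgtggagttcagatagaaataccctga

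The motifs, searched on both strands, were GAGGAAG for PU.1, TGANTCA for AP-1, TGTGGTT for RUNX and the 10-letter MEF2 motif. Among all 32851 windows of 300 bases, 13.6% held the PU.1 letters, 7.81% the AP-1 letters, 5.27% the RUNX letters and 0.557% the MEF2 motif. Rapgef5 held GAGGAAG, starting 58 bases before its start site. Abca9 held the RUNX letters in reverse, as AACCACA, starting 60 bases before its start site. The windows of Klhdc8b and Gpr165 printed above held none, and no motif was shared by the printed windows. A second Klhdc8b window, at an internal start, held TGTGGTT, and a second Rapgef5 window, at chr12:117533678-117533977, held none of the 4. The only Arhgap5 window, at chr12:52515827-52516126 and thus inside the GENCODE gene, held none either.

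In Ctrl mice the 7 genes fell by 2 different amounts. Ccdc162, Gpr165, Upk1b and Klhdc8b kept 20.6 to 26.8% of their CL level in IL, and Abca9, Rapgef5 and Arhgap5 kept 51.3 to 54.6%, on the log2(CPM + 1) scale. In cKO mice the same sets kept 14.98 to 20.4% and 43.1 to 48.0%. The split into sets of 4 and 3 genes was drawn after the values were seen and carries no test. Values below are in CPM, in the order of mice 3541, 3545, 3546 and 3551 for Ctrl. The SEs below come from fits that do not pair the hemispheres of a mouse. With the mouse as a block, SEs were 0.09 (Abca9) to 0.19 (Gpr165) in Ctrl. In cKO, on the 2 mice with both hemispheres, they were 0.12 (Rapgef5) to 0.27 (Ccdc162).

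Upk1b, the uroplakin tetraspanin, measured 86.6, 134, 151 and 131 CPM in Ctrl CL and 18.6, 32.4, 46.0 and 24.9 CPM in Ctrl IL. In cKO it measured 274, 164 and 216 CPM in CL (mice 788, 791 and 3592) and 37.5, 38.3 and 29.5 CPM in IL (mice 784, 791 and 3592). No IL library reached any CL library in either genotype. The log2 change from CL to IL was -1.97 (SE 0.24) in Ctrl and -2.52 (SE 0.21) in cKO.

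Klhdc8b is the kelch-repeat gene. Its Ctrl CL libraries held 89.9, 124, 147 and 117 CPM and Ctrl IL libraries 17.2, 28.2, 50.6 and 28.6 CPM. The cKO CL libraries held 162, 113 and 197 CPM and the cKO IL libraries 28.5, 28.9 and 29.9 CPM. The groups were apart in both genotypes, and the 3 cKO IL values lay very close together. The log2 change was -1.90 (SE 0.25) in Ctrl and -2.29 (SE 0.18) in cKO.

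Gpr165, the orphan receptor, varied widely between mice. Its Ctrl CL values were 10.001, 27.7, 45.3 and 46.7 CPM and its Ctrl IL values 2.05, 4.61, 13.2 and 6.20 CPM. In cKO, CL values were 28.4, 22.1 and 65.9 CPM and IL values 4.36, 4.13 and 7.20 CPM. The Ctrl groups overlapped, because the IL value of mouse 3546 exceeded the CL value of mouse 3541, whereas the cKO groups did not. The log2 change was -2.09 (SE 0.51) in Ctrl and -2.49 (SE 0.36) in cKO.

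Ccdc162, the coiled-coil gene, read 6.27, 11.6, 17.1 and 12.5 CPM in Ctrl CL and 0.398, 1.99, 3.35 and 0.906 CPM in Ctrl IL. The cKO values were 11.4, 7.13 and 13.1 CPM in CL and 0.380, 0.575 and 1.03 CPM in IL. The groups did not overlap in either genotype. Its log2 change, -2.28 (SE 0.37) in Ctrl and -2.74 (SE 0.25) in cKO, is damped by the added 1 CPM: with 0.1 CPM added it was -2.95 and -3.79.

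Abca9 is the ABC transporter. Its Ctrl CL libraries held 198, 214, 476 and 328 CPM and Ctrl IL libraries 87.9, 97.4, 283 and 147 CPM. The cKO libraries held 347, 351 and 387 CPM in CL and 151, 132 and 164 CPM in IL. In Ctrl the groups overlapped through the high IL value of mouse 3546, and in cKO they were well apart. The log2 change was -0.96 (SE 0.34) in Ctrl and -1.21 (SE 0.09) in cKO.

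Rapgef5, the Rap exchange factor, measured 89.2, 98.1, 194 and 181 CPM in Ctrl CL and 46.2, 53.8, 112 and 75.1 CPM in Ctrl IL. The cKO values were 130, 127 and 131 CPM in CL and 60.5, 54.3 and 62.0 CPM in IL. Again the Ctrl groups overlapped through mouse 3546 and the cKO groups did not. The log2 change was -0.87 (SE 0.28) in Ctrl and -1.06 (SE 0.08) in cKO.

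Arhgap5, the GTPase-activating protein, measured 149, 215, 372 and 293 CPM in Ctrl CL and 88.5, 109, 175 and 123 CPM in Ctrl IL. The cKO values were 287, 303 and 291 CPM in CL and 116, 111 and 147 CPM in IL. The Ctrl groups overlapped and the cKO groups did not. The log2 change was -0.92 (SE 0.25) in Ctrl and -1.17 (SE 0.10) in cKO. For all 3 genes of the second set the Ctrl libraries spread widely and the cKO libraries little.

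**Figure D1:**
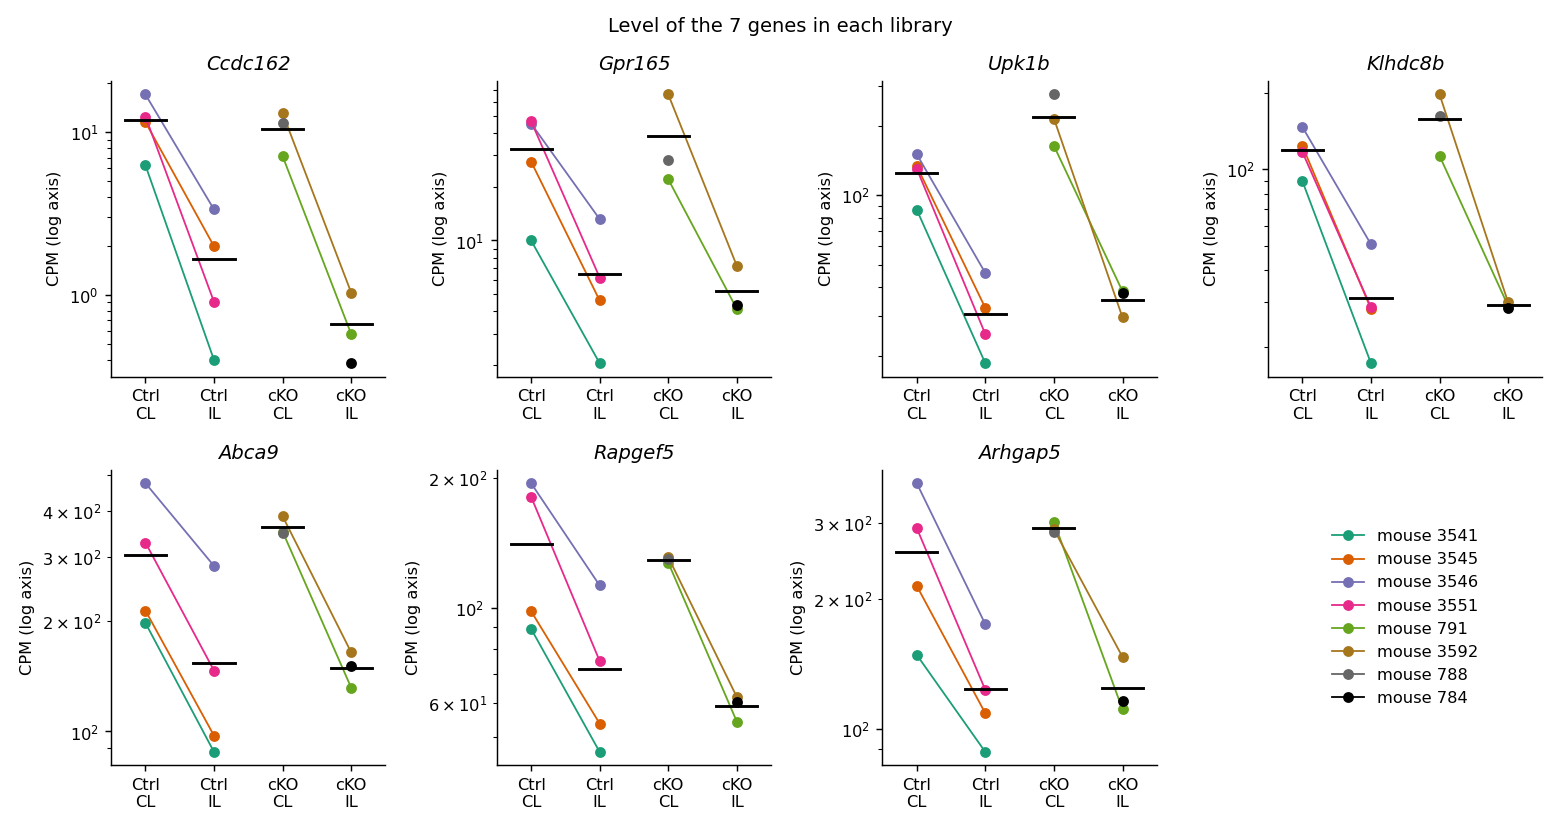
CPM (log axis) of each gene in the 14 libraries, by genotype and hemisphere; points are libraries, lines join the hemispheres of a mouse and black bars are group means. Every line falls from CL to IL, and the Ctrl points spread more than the cKO points for Abca9, Rapgef5 and Arhgap5.

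Every IL library was below every CL library for 3 of the 7 genes in Ctrl, where 8.88% of the 16376 genes tested showed this, and for 7 of 7 in cKO, where 21.0% of 16758 did. These shares are background to a choice made on the same contrast and nothing is read from them. Ranked by log2 change from the most negative, among 10172 genes with a mean log2 value of at least 3 in either Ctrl group, Ccdc162, Gpr165, Upk1b and Klhdc8b stood at places 12, 16, 18 and 19. Abca9, Arhgap5 and Rapgef5 stood at places 216, 245 and 299. In cKO, among 10125 such genes, the first set took places 1 to 4 (Ccdc162, Upk1b, Gpr165, Klhdc8b), and Abca9, Arhgap5 and Rapgef5 places 116, 132 and 188.

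The fall was seen in each mouse. All 7 genes were lower in IL than in CL in 6 of 6 mice with both hemispheres, a pattern shown by 16.3% of the 18476 genes tested over all libraries. Within a mouse the log2 change of Ccdc162 ran from -2.77 to -2.00 (median -2.34), that of Gpr165 from -3.02 to -1.67, that of Upk1b from -2.83 to -1.66 and that of Klhdc8b from -2.68 to -1.48. Abca9 ran from -1.30 to -0.71, Rapgef5 from -1.16 to -0.75 and Arhgap5 from -1.33 to -0.60. In 6 of 6 mice each gene of the first set fell further than each gene of the second set. The nearest approach was in mouse 3546, where Klhdc8b changed by -1.48 and Arhgap5 by -1.05. cKO mouse 3592 had the deepest fall of all 4 genes of the first set, but not of the second set.

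**Figure D2:**
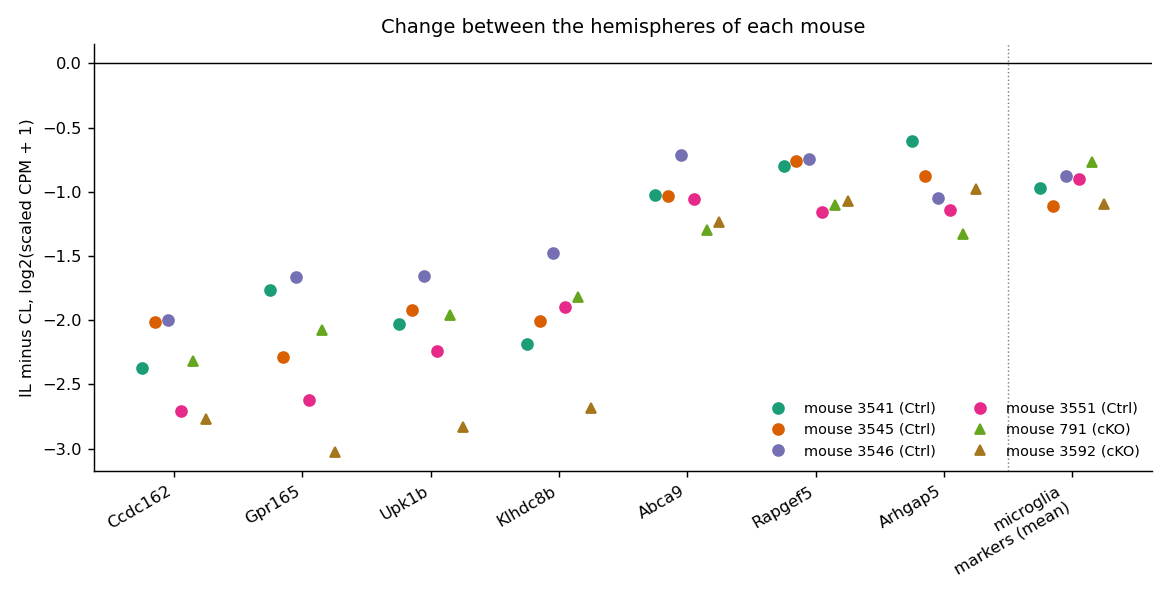
Log2 difference between IL and CL of each of the 6 mice with both hemispheres, for the 7 genes and for the mean of 12 microglial markers; circles are Ctrl and triangles cKO mice. All points lie under 0, and the first 4 genes lie below the other 3 in every mouse.

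The level of these genes differed between mice, and for Ctrl mice 3546 and 3541 it did so in the same direction in both hemispheres. Mouse 3546 was above its group mean for 7 of 7 genes in CL and in IL, and mouse 3541 was above it for 0 of 7 in either. Mouse 3551, in contrast, was above its group mean for 5 of 7 genes in CL and 2 of 7 in IL. Deviations from the group mean correlated between the genes over the 14 libraries, with Pearson's r from 0.49 to 0.94 (median 0.76) over 21 pairs. The closest pair was Abca9 and Rapgef5, and the loosest Abca9 and Upk1b. These correlations are descriptive, since both hemispheres of a mouse enter them. The same deviations correlated with those of the microglial marker mean at 0.59 for Upk1b, 0.47 for Klhdc8b, 0.29 for Ccdc162 and 0.07 for Gpr165, and at -0.13, -0.16 and -0.21 for Abca9, Arhgap5 and Rapgef5. Mouse 3546 had 28.3 M reads in CL and 12.2 M in IL, and mouse 3541 had 41.6 M and 35.2 M. The shallowest Ctrl CL library, with 16.1 M reads, was that of mouse 3551, whose IL library had 34.2 M. The 10 neutrophil markers summed to 6912 CPM in the CL library of mouse 3541, against 1336 to 3744 CPM in the other Ctrl CL libraries. The part of depth and neutrophil RNA in the level differences was not tested.

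**Figure D3:**
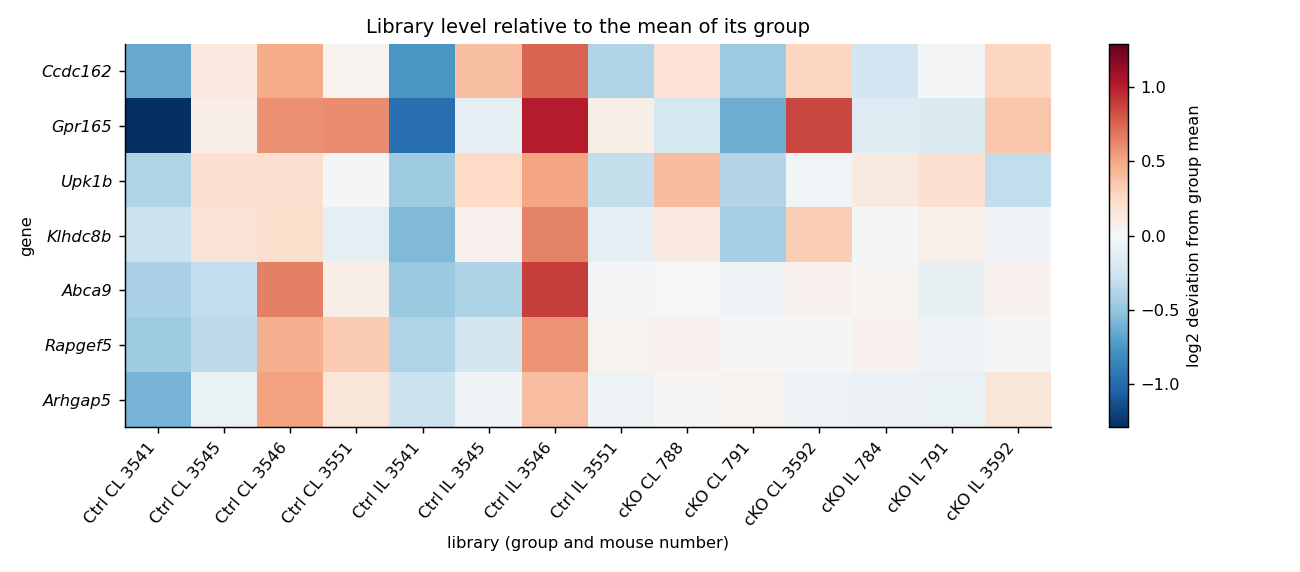
Deviation of each library from the mean of its own group (log2, colour) for the 7 genes; columns are the 14 libraries named by group and mouse. The columns of mouse 3546 are above the group mean for 7 of 7 genes in both hemispheres, and those of mouse 3541 for 0 of 7.

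Markers of several cell types also differed between hemispheres. Of the 12 microglial markers, 8 were called lower in IL in Ctrl and 8 in cKO, and none higher (limma, adjusted p at or under 0.05 and at least a 1.2-fold change). The background was 3.33% of genes called lower and 4.18% called higher in Ctrl, and 10.8% lower and 12.3% higher in cKO. Their summed level was 45030 to 50719 CPM in Ctrl CL and 23683 to 28744 CPM in Ctrl IL, and 41818 to 47033 against 23731 to 26502 CPM in cKO. Single markers changed in Ctrl by -1.48 (P2ry13) to -0.35 (Olfml3, not called) on the log2 scale. The 4 genes of the first set fell further than P2ry13 in Ctrl, and those of the second set lay within the markers' range. In bulk samples, fewer microglia and less RNA of a gene per microglial cell cannot be told apart.

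Of the 10 monocyte markers, 4 were called higher in IL in Ctrl and 6 in cKO. Fn1, which encodes fibronectin, rose most in Ctrl (log2 4.03, SE 0.31, limma adjusted p = 0.000200), and Ccr2, the monocyte chemokine receptor, rose by 1.11 (SE 0.16, limma adjusted p = 0.00364; 0.73 in cKO, limma adjusted p = 0.260). The list did not move as one in Ctrl: Ly6c2 differed by -1.02 (SE 0.67, limma adjusted p = 0.433), Chil3 by -0.67 (SE 0.83, limma adjusted p = 0.726) and Plac8 by 0.03 (SE 0.63, limma adjusted p = 0.987). The list's sum went from 278 to 798 CPM in Ctrl CL to 770 to 1316 CPM in Ctrl IL. The corresponding cKO sums were 161 to 467 and 716 to 1105 CPM. Of the 10 neutrophil markers, 0 were called by limma in Ctrl, where 6 had an unadjusted p under 0.05, and 5 were lower in cKO IL. With the mouse as a block, 8 were lower in Ctrl, where 10.3% of genes were called lower and 10.2% higher in that fit. Their sums were 1336 to 6912 CPM in Ctrl CL and 873 to 1335 CPM in Ctrl IL, and 1220 to 2107 against 863 to 1083 CPM in cKO. Csf3r alone held 489 to 883 CPM in Ctrl CL and 399 to 712 CPM in Ctrl IL (log2 -0.24, SE 0.21, limma adjusted p = 0.588). Among 9 dissociation-response genes, 1 was lower in Ctrl IL (4 with the mouse as a block) and 4 in cKO IL (3 with the block). This list summed to 27522 to 35654 CPM in Ctrl CL and 19281 to 21452 CPM in Ctrl IL, and to 30295 to 42298 against 19766 to 22798 CPM in cKO. T and NK cell, B cell and neuron markers summed to at most 10.9, 43.4 and 20.3 CPM in any library, and oligodendrocyte, astrocyte, endothelial and border macrophage markers to at most 302, 221, 208 and 479 CPM. Cd79b alone gave 41.8 CPM of the highest B cell sum, and Slc1a3 182 CPM of the highest astrocyte sum. Of these 7 lists, 3 held called genes in Ctrl, and 6 with the mouse as a block, where 2 oligodendrocyte, 1 B cell, 1 endothelial and 4 border macrophage markers were lower. In Ctrl, both T and NK cell markers tested were lower in IL, Nkg7 (log2 -1.26, SE 0.31, limma adjusted p = 0.0400) and Klrb1c (log2 -0.92, SE 0.20, limma adjusted p = 0.0259). In cKO 0 of 4 tested were called, with Nkg7 at -0.31 (limma adjusted p = 0.599) and Klrb1c at -0.02 (limma adjusted p = 0.953). Gfap of astrocytes was higher in Ctrl IL by 1.86 on the log2 scale (SE 0.28, limma adjusted p = 0.00414) and Slc1a3, another astrocyte marker, changed by -1.15 (SE 0.13, limma adjusted p = 0.00117). Both were called in the same directions in cKO. Of the border macrophage markers in Ctrl, Ms4a7 was higher by 1.36 (SE 0.28, limma adjusted p = 0.0187) and Cbr2 changed by -0.89 (SE 0.21, limma adjusted p = 0.0343). In cKO Ms4a7 changed by 1.38 (limma adjusted p = 0.00334) and Cbr2 by 0.09 (limma adjusted p = 0.916). Of 5 cell cycle genes, 1 was called higher in IL in each genotype, Mki67 in Ctrl and Birc5 in cKO, and 3 in each with the mouse as a block. The part of these shifts in the fall of the 7 genes was not tested.

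The 7 genes were also set against the microglial markers. The mean log2 change of the 12 markers was -0.97 in Ctrl and -0.93 in cKO. Subtracting the marker mean of each library shifts all 7 genes by the same amount within a genotype, so the gap between the sets is the one already described. After it, the Ctrl change was -1.31 (SE 0.40) for Ccdc162, -1.12 (SE 0.61) for Gpr165, -0.9999 (SE 0.25) for Upk1b and -0.93 (SE 0.26) for Klhdc8b. It was 0.01 (SE 0.42) for Abca9, 0.10 (SE 0.36) for Rapgef5 and 0.04 (SE 0.30) for Arhgap5. In cKO the first set kept -1.81 (SE 0.25), -1.56 (SE 0.46), -1.58 (SE 0.18) and -1.36 (SE 0.15), in the same order. Abca9 kept -0.28 (SE 0.13), Rapgef5 -0.13 (SE 0.12) and Arhgap5 -0.24 (SE 0.19). Abca9, Rapgef5 and Arhgap5 thus fell about as much as the average microglial marker in Ctrl, and the other 4 genes fell further than it in both genotypes. The IL and CL groups still stood apart after the subtraction for Upk1b and Klhdc8b in Ctrl and for all 4 genes of the first set in cKO. After the same subtraction 0.122% of all genes tested did so in Ctrl and 0.495% in cKO, and nothing is read from these shares, since the genes were chosen on this contrast.

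**Figure D4:**
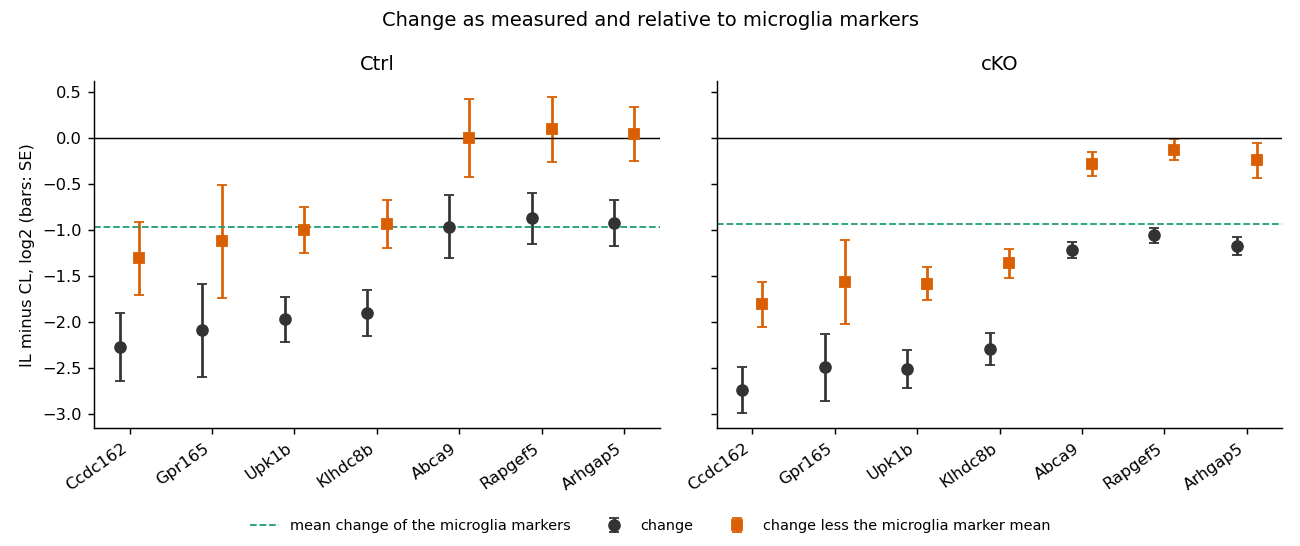
Log2 change from CL to IL in Ctrl and cKO (bars are SE, hemispheres not paired by mouse): black circles as measured, orange squares after subtracting the mean of 12 microglial markers in each library, with that mean's own change as a dashed line. The orange squares of Abca9, Rapgef5 and Arhgap5 sit at 0.01 to 0.10 in Ctrl, and those of the other 4 genes stay at -0.93 or below.

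Levels can be compared between genes only per length, here per kilobase of the longest coding transcript. In Ctrl CL, Upk1b led with 66.3 ± 14.5 CPM per kb (SD, n = 4), followed by Abca9 with 47.6 ± 20.1, Klhdc8b with 40.4 ± 7.94, Arhgap5 with 27.6 ± 10.4, Rapgef5 with 20.9 ± 8.11 and Gpr165 with 10.2 ± 5.44 CPM per kb. Ccdc162 was last with 1.63 ± 0.611 CPM per kb. Neighbours in this order overlapped within 1 SD, except Gpr165 and Ccdc162. In Ctrl IL, Abca9 led with 24.1 ± 14.1 CPM per kb, ahead of Upk1b with 16.1 ± 6.21, Arhgap5 with 13.3 ± 3.96, Rapgef5 with 10.7 ± 4.41 and Klhdc8b with 10.5 ± 4.74 CPM per kb. Gpr165 with 2.05 ± 1.502 and Ccdc162 with 0.229 ± 0.180 CPM per kb followed, each below its upper neighbour by more than their SDs. Among the first 5 in IL, neighbours overlapped within 1 SD.

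The genotype comparison averaged over both hemispheres does not use the difference between IL and CL, and it was tested. None of the 7 genes was called between cKO and Ctrl, where 2.28% of 18476 genes were. At an unadjusted p under 0.05, which 12.1% of all genes reached, there was 1 of 7, Upk1b, which was higher in cKO by 0.57 on the log2 scale (SE 0.20, limma adjusted p = 0.222). The others ranged from -0.33 for Ccdc162 (SE 0.27, limma adjusted p = 0.715) to 0.23 for Abca9 (SE 0.20, limma adjusted p = 0.752). Standard errors of 0.16 to 0.36 leave moderate differences unresolved.

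Within each hemisphere the libraries are those that also entered the choice of genes. In CL, where 0.905% of 16570 genes were called, the cKO minus Ctrl log2 difference was 0.84 for Upk1b (SE 0.21, limma adjusted p = 0.145), 0.43 for Klhdc8b (SE 0.20, limma adjusted p = 0.508) and 0.02 for Rapgef5 (SE 0.24, limma adjusted p = 0.990). In IL, where 0.664% of 16873 genes were called, Upk1b differed by 0.28 (SE 0.26, limma adjusted p = 0.867) and Ccdc162 by -0.55 (SE 0.35, limma adjusted p = 0.751). By limma 0 of the 7 passed in either hemisphere, and at an unadjusted p under 0.05 there was 1 in CL, Upk1b, and 0 in IL, beside 10.3% and 9.19% of all genes. The lowest cKO CL value of Upk1b, 164 CPM, lay above the highest Ctrl CL value, 151 CPM. The change from CL to IL was more negative in cKO than in Ctrl for each of the 7 genes, by 0.19 (Rapgef5) to 0.55 (Upk1b) on the log2 scale, and that difference was not tested because both contrasts count as used in choosing the genes. By mouse, cKO mouse 3592 fell further than each of the 4 Ctrl mice for 5 of 7 genes, all but Rapgef5 and Arhgap5, and cKO mouse 791 for 2 of 7, Abca9 (-1.30) and Arhgap5 (-1.33). Of all 18476 genes, 22.4% did so in mouse 3592 and 20.2% in mouse 791.

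Over all 7 families, 11 of 210 relatives tested (5.24%) were called lower in IL in Ctrl and as many higher, beside 3.33% and 4.18% of all genes. In cKO 29 of 216 (13.4%) were lower and 14 (6.48%) higher, beside 10.8% and 12.3%. Of 9 other ABCA transporters tested, 1 was called lower and 1 higher in IL in Ctrl; the latter was Abca1, a cholesterol efflux pump (log2 1.41, SE 0.34, limma adjusted p = 0.0373; 1.06 in cKO), and the former the scarce Abca13. Among the closest relatives, Abca8a, Abca8b and Abca6 stayed at a mean of 0.607 CPM or below. Of 30 other GTPase-activating proteins with an Arhgap symbol, 3 were higher and 1 lower in Ctrl, and 3 higher and 8 lower in cKO. Arhgap10 rose by 2.25 (SE 0.23, limma adjusted p = 0.000675), Arhgap24 and Arhgap19 also rose, and Arhgap12 fell by 0.62 on the log2 scale (SE 0.15, limma adjusted p = 0.0324). Arhgap35 (p190-A), the nearest relative of Arhgap5, changed by -0.08 (SE 0.31, limma adjusted p = 0.938) in Ctrl. Of 6 other Rap exchange factors, 0 were called by limma in Ctrl, 0 had an unadjusted p under 0.05, and 2 were lower in cKO. With the mouse as a block, for which 10.3% of all genes were lower and 10.2% higher, the Ctrl counts became 6 higher and 7 lower for the Arhgap genes, 3 higher and 1 lower for the ABCA transporters and 1 lower for the Rap exchange factors.

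Of 38 other receptors with a numbered Gpr symbol, 6 were higher and 3 lower in Ctrl. Gpr35 rose (log2 1.62, SE 0.19, limma adjusted p = 0.00133), and Gpr34, itself a microglial marker, fell (log2 -1.04, SE 0.17, limma adjusted p = 0.00630), as did Gpr155 and Gpr183. Of 25 other tetraspanins, 1 was higher (Tspan17) and 3 were lower, Tspan14, Cd37 and Tspan13, the last by the most (log2 -0.78, SE 0.16, limma adjusted p = 0.0179). Upk1a, a close relative of Upk1b, averaged 0.0834 CPM, too low to test, as was Klhdc8a with 0.224 CPM. Of 6 other Klhdc genes 0 were called by limma in either genotype, with 2 at an unadjusted p under 0.05 in Ctrl and 0 in cKO. Of 96 other Ccdc genes, 3 were lower (Ccdc36, Ccdc117 and Ccdc62) and 0 higher. Abca13, Arhgap19, Gpr183, Cd37 and Ccdc62 are named after their values were seen. With the mouse as a block, 9 Gpr genes were higher and 5 lower, 3 tetraspanins higher and 7 lower, 6 Ccdc genes lower and 1 higher, and 1 Klhdc gene higher. In cKO, of 40 Gpr genes tested 6 were higher and 4 lower, of 26 tetraspanins 2 and 5, of 99 Ccdc genes 2 and 9, and of 9 ABCA transporters 1 and 1.

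Genes within 50 kb gave a mixed picture. Of 13 neighbours tested, 4 were called lower in IL and 0 higher in Ctrl, where 3.33% of all genes were lower and 4.18% higher, and 4 lower and 0 higher in cKO, where the shares were 10.8% and 12.3%. Cd164, which encodes the sialomucin endolyn and lies 7798 bases from Ccdc162, changed by -1.21 (SE 0.15, limma adjusted p = 0.00149). B4galt4, a galactosyltransferase 4135 bases from Upk1b, changed by -0.98 (SE 0.16, limma adjusted p = 0.00716). Ccdc36, 19152 bases from Klhdc8b, changed by -1.39 (SE 0.22, limma adjusted p = 0.00516). The fourth in Ctrl was Gm35135 near Arhgap5, at most 1.24 CPM in any library. Ccdc71, which overlaps Klhdc8b, changed by -0.29 (SE 0.13, limma adjusted p = 0.226) in Ctrl and by -0.30 in cKO (limma adjusted p = 0.0383, a called change). With the mouse as a block, 1 of 5 Klhdc8b neighbours was lower in cKO (2 without it), where 17.9% of all genes were called either way. For Ccdc162 in Ctrl, 2 of 3 were lower (1 without it), beside 10.3% of all genes.

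Over the 14 libraries, the genes with the most similar pattern were found by Pearson's r of log2 values among 9755 or 9756 genes with a mean log2 value of at least 3. For Upk1b they included Tlr5 (0.98) and Tmc7 (0.98), and for Klhdc8b Gpr155 (0.99), Cmtm6 (0.98) and Upk1b itself (0.98). For Ccdc162 they were Epn2, Gprasp2 and Ivns1abp (each 0.97), and for Gpr165 Btg2 (0.98), Ivns1abp (0.97) and Slc25a37 (0.96). For Abca9 they were Slc4a7 (0.98), Nbr1 (0.97) and Gprasp1 (0.97), for Rapgef5 Cep68, Fam102b (each 0.98) and Ppm1l (0.97), and for Arhgap5 Zfp862-ps (0.98), Tgfbr1 and Gprasp1 (each 0.97). Ivns1abp was listed for both Ccdc162 and Gpr165, and Gprasp1 for both Abca9 and Arhgap5. The hemisphere difference that chose the genes enters each r, and its share was not measured, so these values are descriptive.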

How the data were processed

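CD11b+ cells of 14 hemispheres were sequenced (Smart-Seq v4, paired-end). The authors mapped reads with STAR to mm10 and analysed them in Partek Flow 8.0. The deposited table holds CPM per Ensembl gene, summing to 1000000 in each library, although it is named as raw counts; 79.0 to 83.5% of low values were whole multiples (within 0.03) of the library's smallest step, from which depth was estimated, and no count model was used. Symbols and positions came from GENCODE M21. CPM were rescaled by trimmed mean of M values and tested as log2(CPM + 1) with limma 3.58.1 (trend, empirical Bayes; R 4.3.3) after a filter equal to 10 reads at median depth in as many libraries as the smaller group and 15 reads in total. A gene was called at a p of at most 0.05 after Benjamini-Hochberg adjustment over all genes tested, with at least a 1.2-fold change. The test over both hemispheres took all 14 libraries and modelled the mouse by duplicateCorrelation (consensus correlation 0.44). The deposited tables of the authors' own comparisons (p-values, ratios and fold changes) were not used. The scripts were tested on simulated data.

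The 7 genes and the gene lists were chosen with earlier results of these data known. Besides them, the text names close relatives, per family up to 2 called genes each way with a mean log2 of at least 3, the 3 most alike genes each, genes within 50 kb and markers from 12 lists. Same-numbered libraries were taken to come from the same mouse by their labels. Over 6 such pairs their deviations correlated at 0.18 to 0.60 (median 0.41). Over 19 other pairs of IL and CL libraries of a genotype they correlated at -0.53 to 0.50 (median -0.22), so the ranges overlap. Pseudocount, scaling, filter, each library left out, the mouse as a block and centring on microglial markers were varied. The level of the deleted gene and some genes that the naming rule picks are not reported here.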

Additional observations from a re-analysis of the deposited data

How the results depend on the processing

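The fall of the 7 genes kept its direction under every pseudocount, scaling, filter, replicate block and left-out library tried. After centring on the microglial markers, the median change was -0.93 in Ctrl and -1.36 in cKO, and 3 Ctrl changes turned positive: 0.0061 for Abca9, 0.095 for Rapgef5 and 0.045 for Arhgap5. In the 3 genotype comparisons 0 of the 7 genes were called under any setting; the lowest adjusted p of the test over both hemispheres was 0.0938 for Upk1b, without the Ctrl IL library of mouse 3546, and the highest for Upk1b 0.532.

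Counts over all genes moved more. Without the filter, genes called between hemispheres went from 1231 to 545 in Ctrl and from 3870 to 2507 in cKO, and between genotypes from 112 to 66 in IL and from 150 to 78 in CL. With the mouse as a replicate block, Ctrl calls rose to 3349 (cKO 2997, on 4 libraries), and SEs of the 7 genes were 0.09 to 0.19 in Ctrl and 0.12 to 0.27 in cKO. With no replicate block, genotype calls over both hemispheres went from 421 to 640. With all 14 libraries in the fit they were 188 in IL and 296 in CL. Leaving out each library gave 572 (without Ctrl IL 3541) to 1660 (without Ctrl IL 3546) calls between hemispheres in Ctrl and 1949 to 3630 in cKO, and between genotypes 240 to 489 over both hemispheres, 44 to 294 in IL and 67 to 161 in CL. The cause was not tested. With 3 or 4 libraries a group, moderate genotype differences could not be resolved. Even a difference of 0.84 (SE 0.21), that of Upk1b in CL, had a limma adjusted p of 0.145.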
